A study of Mus musculus with 24 samples.

Results

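The genes described here lie on mouse chromosome 17 beyond the distal end of a segment from the wild-derived strain CAST/EiJ (CAST), on the stretch that both genotypes of the study were to carry as C57BL/6J (B6). A gene was included when its lowest deposited coordinate on chromosome 17 was at or beyond 45.73 Mb (genome build GRCm38), the marker that ends the segment, and 3 genes that the rule excludes (*Rsph9*, *Polr1c* and *Trem2*) were left out. This gave 219 members among the 13998 genes of the deposited table, from *Vegfa*, 0.287 Mb past the end, to a gene 49.0 Mb past it, and 2 genes that only RefSeq places there were not included. Hypothalamus RNA came from 24 adult male F2 mice, aged 10 to 16 weeks at the diet test, of which 12 were *cast/cast* and 12 *b6/b6* across the segment and all were to be *b6/b6* elsewhere. The mice descended from a cross of 1 male of the subcongenic strain B6.CAST-17.1 with C57BL/6J females. They had been offered carbohydrate/protein and fat/protein diets for 10 days, and were chosen from the 25% tails of intake, high carbohydrate intake for *cast/cast* and low carbohydrate intake for *b6/b6*. All mice were returned to chow, then offered both diets again for about 48 hours before the tissue was taken. Genotype and the intake used for selection therefore cannot be told apart in these mice. The comparison on the flank asks where along the chromosome the differences between the genotypes stop.

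In a congenic strain, a stretch of donor chromosome is bred onto another strain's genome, and its edge is known only to the nearest genotyped markers. A DNA variant that acts in *cis* changes the transcript of the gene it lies in or near, so expression differences that come from donor alleles cluster on the donor stretch, while effects that act in *trans* can appear on any chromosome. The distal flank carries genes of many kinds, among them the growth factor *Vegfa*, the calmodulin gene *Calm2* and *Adcyap1*, which encodes the hypothalamic neuropeptide PACAP.

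Expression was measured by SAGE-Seq, in which a short tag next to a cutting site near the 3′ end of each transcript is sequenced and counted, so that a count stands for transcripts and does not scale with gene length. The deposited values are normalized counts, tag hits divided by the size factor of the library. Tag hits per mouse came to between 7754202 and 13082873. Each library came from another animal, which makes the replicates biological. Ranked over genes, 4 libraries correlated least with the rest (*cast/cast* 4 and 6, *b6/b6* 6 and 12, with median Spearman coefficients from 0.789 to 0.868, against 0.885 or more in the other 20), and results that rest on them are given with and without them. The 4 libraries are simply the 4 lowest, and the highest of them (0.868) is near the lowest of the others (0.885). The labels name no batch, but the study number, an identifier whose meaning they do not give, centred on 120.5 for *cast/cast* and on 269.5 for *b6/b6*. Study numbers of the 4 libraries, in the order named, were 15, 72, 42 and 27, where those of the others ran from 41 to 364. Of 11 hypothalamic markers 10 were in the table (*Sst* was not), and their summed level was 11647 to 29889 normalized counts per *b6/b6* mouse and 5932 to 35079 per *cast/cast* mouse. In the same order the sums were 117 to 226 and 82.8 to 359 for 4 of 5 choroid plexus markers, 222 to 1075 and 234 to 775 for 5 of 5 thalamus markers, 0.0 to 469.8 and 0.0 to 265 for 2 of 5 anterior pituitary markers, and 121 to 4999 and 105 to 782 for 3 of 4 blood markers. The part of such tissue in the results was not tested.

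The tag expected from the B6 reference for a gene was read as the 27 bases that start at the last CATG, the site of the enzyme NlaIII, in its GENCODE transcript matched to RefSeq. Such a tag was found for 199 of the 219 members. It lay in the 3′ UTR in 164 and in coding sequence in 30, and it occurred in transcripts of another gene in only 2, *Rpl36* and *Rpl7l1*, whose counts are therefore uncertain. In 21 members the expected tag lay outside the deposited span of the gene, among them *Plin3*, *Myl12b*, *Strn*, *Adcyap1* and *Mettl4*. Which sites were counted for each gene is not given in the sources used here. The sequences of 8 genes around the edge, 4 on each side of it, follow to show the stretches expected to be counted there, and that of *Rpl36* to show the shared tag, with the CATG in capitals. All positions are GRCm38. The tags of *Slc35b2*, the last called gene of the first limma fit described below, and of its uncalled neighbour *Hsp90ab1* are less than 1 kb apart on opposite strands.
Aars2 (chr17:45520810-45520836, plus strand, 3′ UTR): CATGtggtacacaataatacaataatt
Slc35b2 (chr17:45567516-45567542, plus strand, 3′ UTR): CATGcagttcccctaggggccagtgag
Hsp90ab1 (chr17:45567908-45567934, minus strand, 3′ UTR): CATGtctacaagaatcttctatcctgt
Mrpl14 (chr17:45698246-45698272, plus strand, coding sequence): CATGcccggctcccgaatgaccccaaa
Vegfa (chr17:46018082-46018108, minus strand, 3′ UTR): CATGatagtctacaaaagcaccccgcc
Mrps18a (chr17:46125331-46125357, plus strand, coding sequence): CATGctgccccggcgggtcacaggctt
Mad2l1bp (chr17:46147410-46147436, minus strand, 3′ UTR): CATGattttaaatatgatgagatgaat
Gtpbp2 (chr17:46169264-46169290, plus strand, 3′ UTR): CATGaactcagggatttgttggaagat
Rpl36 (chr17:56614183-56614209, plus strand, coding sequence): CATGaggaaggcggcggccaagaagga

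On the flank, no gene differed between the genotypes by the thresholds of the study. A gene was called when limma on log2(normalized count + 1), fitted once to all 13998 genes, gave an unadjusted P no higher than 0.01 and the mean normalized counts differed at least 1.5-fold in the same direction. By this rule 0 of the 219 members were called, 0 higher and 0 lower, beside 0.688% of the 12644 genes of the other chromosomes and 24.8% of the 411 genes of the CAST segment. After Benjamini-Hochberg adjustment over all genes the lowest adjusted P of a member by limma was 0.243. At an unadjusted P under 0.05 limma gave 12 members, 5 with higher and 7 with lower values in *cast/cast*, where the share was 5.48% of members and 7.17% of the genes of the other chromosomes. The count was 26 with study number as a covariate, 15 without the 4 libraries that stand apart and 5 without the 2 of them that are *b6/b6*, with 9, 7 and 5 of the 12 among them in turn. In those fits 1.42%, 0.546% and 0.214% of the genes of the other chromosomes were called, in turn. edgeR called 4 members (1.83%), beside 2.02% of the genes of the other chromosomes, and DESeq2 called 0, beside 2.02%, with 21 and 19 members at an unadjusted P under 0.05. The 7.17% was counted for the first limma fit only, so the counts of the other fits have no such share beside them. For 0 members did the values of the genotypes not overlap, beside 0.0% on the other chromosomes and 42 genes in the segment.

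**Figure D1:**
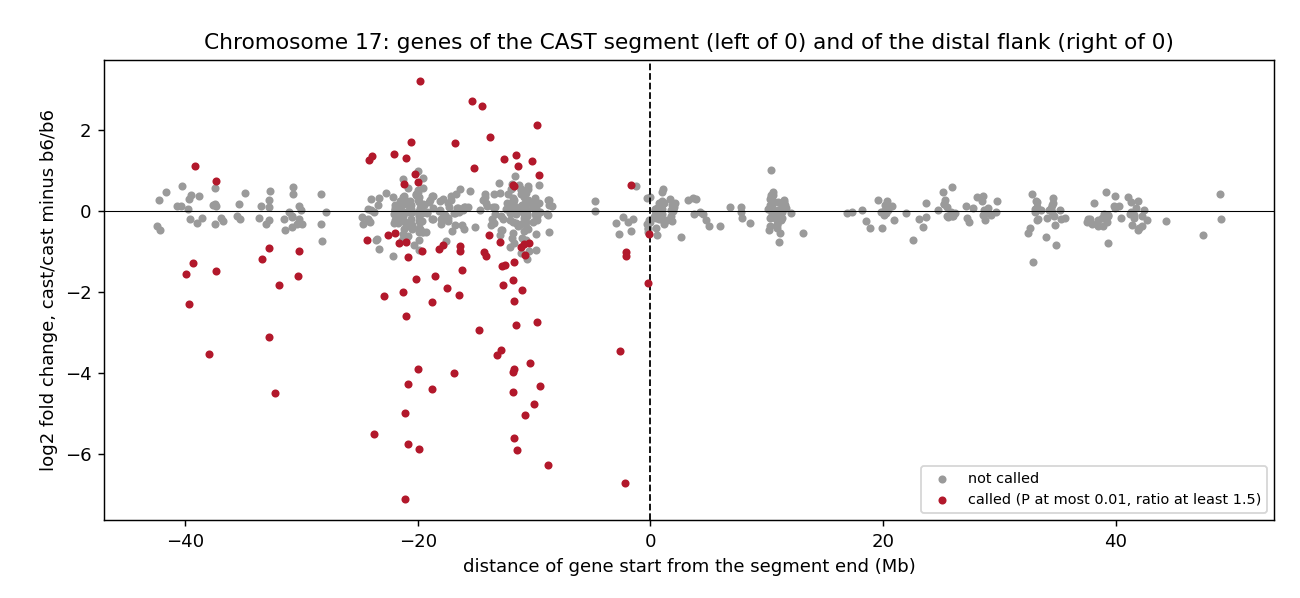
Log2 fold change (*cast/cast* minus *b6/b6*, 12 mice each) of each gene of the CAST segment and of the distal flank against the distance of its start from the segment end in Mb, with called genes in red. The 102 red points all lie left of 0, and the 219 points right of 0 range from -1.27 to 1.01.

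The differences were also smaller on the flank than over the segment as a whole. Members had a median absolute log2 fold change of 0.17, where genes of the other chromosomes had 0.19 and genes of the segment 0.34. The values of members ran from -1.27 (*Strn*) to 1.01 (*Plin4*), and those of segment genes from -7.13 to 3.22. Of the 102 called segment genes 25 were higher and 77 lower in *cast/cast*. Whether CAST variants in segment tags, which were mapped to the B6 reference, change these values was not tested. Of the 219 log2 fold changes 102 were above 0 and 117 below, with a median of -0.02, equal to the -0.02 of the other chromosomes. On the log2 scale genotype took a median of 2.35% of the variance of a member between mice and at most 37.6%, in *Plin3*.

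In the first limma fit the last calls on the chromosome lay inside the segment. *Aars2* (45506840 to 45520843, plus strand), the mitochondrial alanyl-tRNA synthetase, starts 223 kb short of the end. Normalized counts of *Aars2* ran from 109 to 345 with a median of 187 in *b6/b6* mice, and from 26.5 to 91.6 with a median of 52.4 in *cast/cast* mice. All 12 *cast/cast* mice were below all 12 *b6/b6* mice, and the mean was 3.48-fold lower with *cast/cast* alleles (log2 fold change -1.78, SE 0.19, 95% interval -2.18 to -1.38, limma adjusted P = 2.96e-07). *Aars2* was the most distal gene of chromosome 17 with an adjusted P no higher than 0.05 and a 1.5-fold ratio in each of the 11 fits made, edgeR and DESeq2 among them. In whole tissue, fewer cells that express a gene and less RNA per cell cannot be told apart. Tags were mapped to the B6 reference, and whether CAST variants in a tag or its CATG site change the count was not tested.

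*Slc35b2* (45564151 to 45567669, plus strand), which moves the sulfate donor PAPS into the Golgi, starts 166 kb short of the end. In the first limma fit it was the most distal call at an unadjusted P. Normalized counts of *Slc35b2* ran from 56.9 to 228 with a median of 79.6 in *b6/b6* mice, and from 42.4 to 89.0 with a median of 53.6 in *cast/cast* mice. The groups overlapped, with 8 *cast/cast* mice below the lowest *b6/b6* mouse and 3 *b6/b6* mice above the highest *cast/cast* mouse. The log2 fold change was -0.58 (95% interval -0.998 to -0.15, unadjusted P = 0.00929, limma adjusted P = 0.482), and the call did not survive adjustment. The values of *b6/b6* 12 (228) and *b6/b6* 6 (164) were the highest, and both libraries stand apart. Without the first the ratio of means changed from 1.59 to 1.39, and without both the log2 fold change was -0.35 (unadjusted P = 0.0368) and the gene was not called.

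Between *Aars2* and *Slc35b2* the genotypes overlapped in all 3 genes tested, and none was called. The testis-expressed axonemal gene *Tcte1* had normalized counts of 104 to 247 (median 158) in *b6/b6* mice against 35.5 to 187 (median 137) with *cast/cast*, with a log2 fold change of -0.45 (95% interval -0.90 to 0.01). *Tmem151b*, a membrane protein gene, had normalized counts of 308 to 1478 (median 786) in *b6/b6* mice against 189 to 1977 (median 490.4) with *cast/cast*, with a log2 fold change of -0.52 (interval -1.25 to 0.20). Without the 4 libraries that stand apart this became -1.03 and was called (unadjusted P = 0.0035), and *Slc35b2* was not called in that fit. *Nfkbie*, an inhibitor of NF-kappaB, was near the lowest level of the table with normalized counts of 2.87 to 14.7 (median 7.43) in *b6/b6* mice against 0.916 to 12.7 (median 5.19) with *cast/cast*.

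From *Slc35b2* to the end lay 4 more tested genes, none of them called. *Hsp90ab1*, the constitutive cytosolic chaperone HSP90 beta, was the most abundant of them, with normalized counts of 8521 to 19339 (median 16646) in *b6/b6* mice against 6539.7 to 22966 (median 13315) with *cast/cast* and a log2 fold change of -0.21 (95% interval -0.63 to 0.20). *Slc29a1*, an equilibrative nucleoside transporter, had normalized counts of 379 to 1428 (median 749) in *b6/b6* mice against 382 to 1070.5 (median 634) with *cast/cast*, and its log2 fold change was -0.26 (-0.69 to 0.17). *Tmem63b*, an osmosensitive cation channel, had normalized counts of 2051 to 8786 (median 5340.4) in *b6/b6* mice against 4277 to 12156 (median 5356) with *cast/cast* and a log2 fold change of 0.34 (-0.14 to 0.82). The mitochondrial ribosomal gene *Mrpl14*, the last gene tested inside the segment, starts 0.0436 Mb before its end. Normalized counts were 9.34 to 84.8 (median 32.8) in *b6/b6* mice against 11.4 to 68.9 (median 31.8) with *cast/cast*, with a log2 fold change of -0.28 (-0.98 to 0.41). In all 4 the groups overlapped over most of their range, and all 4 intervals include a difference of 1.5-fold.

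**Figure D2:**
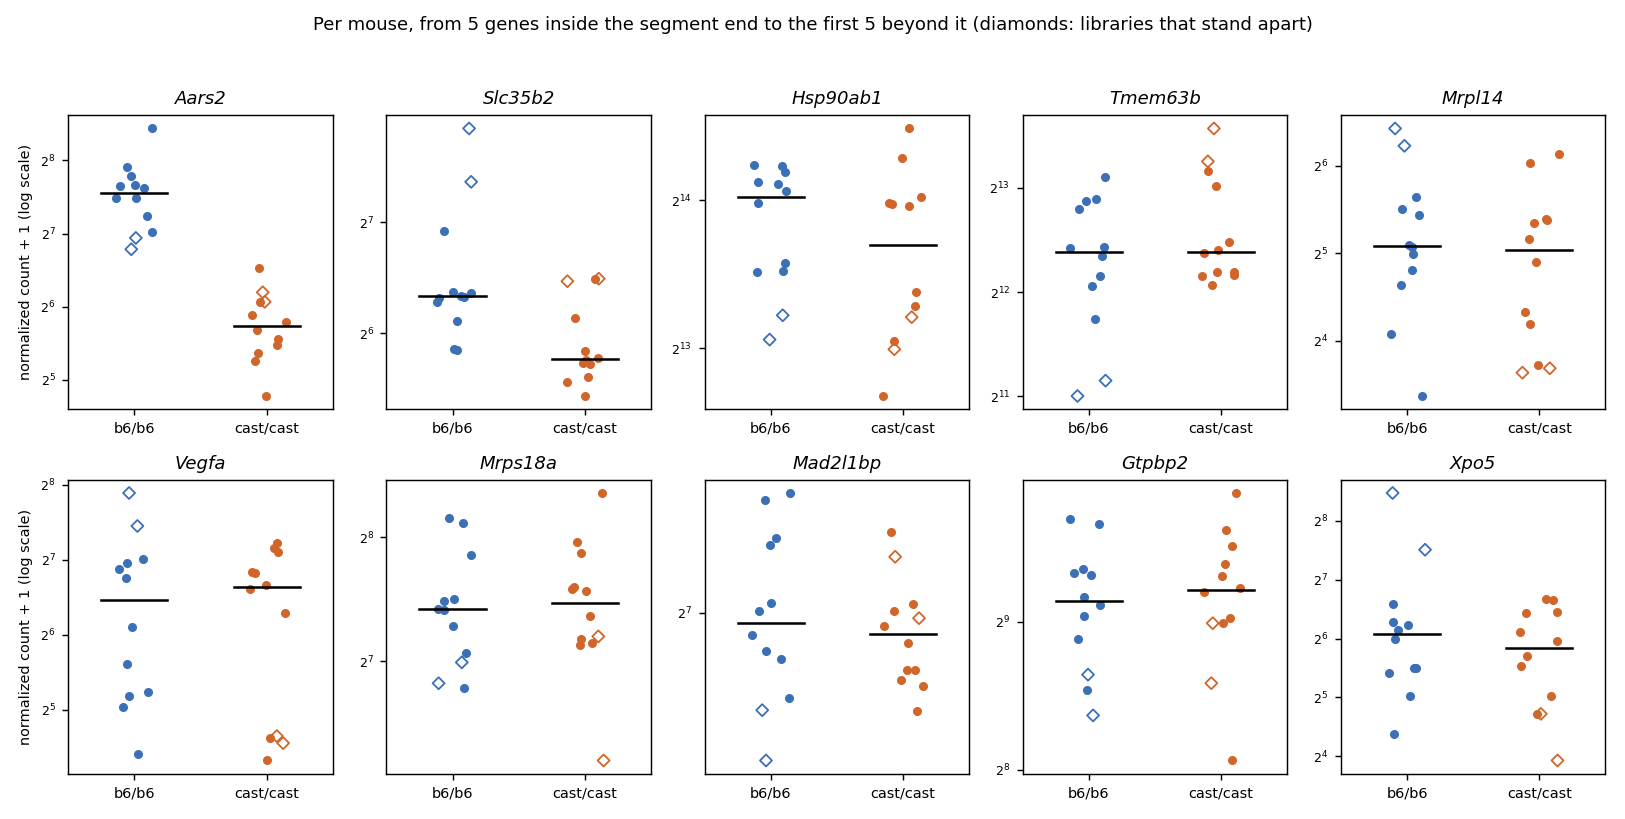
Normalized count + 1 (log scale) in each of the 24 mice for 5 genes inside the segment end (top) and the first 5 members beyond it (bottom), with bars at group medians and open diamonds for the 4 libraries that stand apart. Only *Aars2* shows 2 groups that do not overlap, and in *Xpo5* the 2 highest points are diamonds of *b6/b6*.

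No gene was tested in the stretch from the end to the first member, which spans 0.287 Mb. RefSeq places 9 genes in it, of which 1 (*1600014C23Rik*, 45731681 to 45734106) is protein coding and 8 are long noncoding RNAs. The first member, *Vegfa* (46016992 to 46032377, minus strand), encodes the angiogenic growth factor VEGF-A. Normalized counts of *Vegfa* ran from 20.4 to 236 with a median of 87.5 in *b6/b6* mice, and from 19.1 to 149 with a median of 98.3 in *cast/cast* mice. The groups overlapped, with 2 *b6/b6* mice above and 1 *cast/cast* mouse below the range of the other group, and the log2 fold change was -0.14 (95% interval -1.01 to 0.74, unadjusted P = 0.748, limma). Measured from gene starts, the last adjusted call and the first member lie 510.2 kb apart, and the last unadjusted call and the first member 453 kb. The data thus place the last adjusted call at *Aars2* in each fit, and the last unadjusted call of the first limma fit at *Slc35b2*. Some other fits called 1 to 4 members farther out at an unadjusted P. Where beyond *Aars2* the CAST alleles end is not resolved. Most genes of the segment were not called either, and the interval of *Vegfa* includes a 2-fold difference.

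The 15 members nearest the end, within 0.834 Mb of it, overlapped between genotypes without exception, and none reached an unadjusted P under 0.05. Their log2 fold changes ran from -0.60 to 0.21, 7 above 0 and 8 below, where the last 15 genes inside the segment ran from -1.78 to 0.65 with 3 called. *Mrps18a*, a mitochondrial ribosomal protein, had normalized counts of 109 to 285 (median 170.3) in *b6/b6* mice against 72.4 to 327 (median 176) with *cast/cast* and a log2 fold change of 0.02 (95% interval -0.39 to 0.44). *Mad2l1bp*, which helps to silence the spindle checkpoint, had normalized counts of 72.9 to 199 (median 122) in *b6/b6* mice against 87.9 to 172 (median 117) with *cast/cast* and a log2 fold change of -0.09 (-0.43 to 0.25). *Gtpbp2*, a GTPase tied to the rescue of stalled ribosomes, had normalized counts of 329.5 to 826 (median 563) in *b6/b6* mice against 267 to 935 (median 593) with *cast/cast* and a log2 fold change of 0.06 (-0.32 to 0.43). These 3 intervals exclude a 1.5-fold difference in either direction.

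*Xpo5*, which exports microRNA precursors from the nucleus, had the lowest P within 0.5 Mb of the end. Normalized counts of *Xpo5* ran from 19.9 to 355 with a median of 66.3 in *b6/b6* mice, and from 14.2 to 101 with a median of 56.4 in *cast/cast* mice. The ratio of means, 1.58-fold lower in *cast/cast*, fell to 1.16 without *b6/b6* 12 alone (355 normalized counts), and *b6/b6* 6 was the next highest (181). *Tjap1*, a tight junction associated gene, had the largest difference of the 15 at -0.60 on the log2 scale, but at normalized counts of 6.14 to 64.5 (median 21.8) in *b6/b6* mice against 1.08 to 38.4 (median 17.1) with *cast/cast* its interval was wide (-1.51 to 0.32).

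The other members of these 15 were as follows. The Golgi gene *Yipf3* had median counts of 221 (*b6/b6*) and 242 (*cast/cast*) and a log2 fold change of -0.17 (-0.62 to 0.28). *Dlk2*, a relative of the Notch modulator Dlk1, had median counts of 301 and 320.2 in the same order and a log2 fold change of 0.09 (-0.27 to 0.44). *Abcc10*, an ABC transporter, had median counts of 170.0 and 163 and a log2 fold change of -0.03 (-0.61 to 0.54). The zinc finger gene *Zfp318* had median counts of 720.1 and 911, with a log2 fold change of 0.04 (-0.41 to 0.50). For *Crip3*, a LIM domain gene of low level, the median counts were 21.3 and 24.2, with a log2 fold change of 0.21 (-0.47 to 0.89). *Ttbk1*, a brain kinase that phosphorylates tau, had median counts of 334 and 324, with a log2 fold change of 0.04 (-0.42 to 0.51). In *Cul9*, a cullin of ubiquitin ligases, the median counts were 233 and 208, with a log2 fold change of -0.21 (-0.71 to 0.30). *Srf*, the serum response factor, had the narrowest interval of the 15, with median counts of 520.4 and 524 and a log2 fold change of 0.11 (-0.17 to 0.38). *Ptk7*, a pseudokinase of planar cell polarity, had median counts of 20.01 and 19.9, with a log2 fold change of -0.18 (-0.68 to 0.32). In 12 of the 15 the interval lay within a 2-fold difference either way and in 7 within 1.5-fold.

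**Figure D3:**
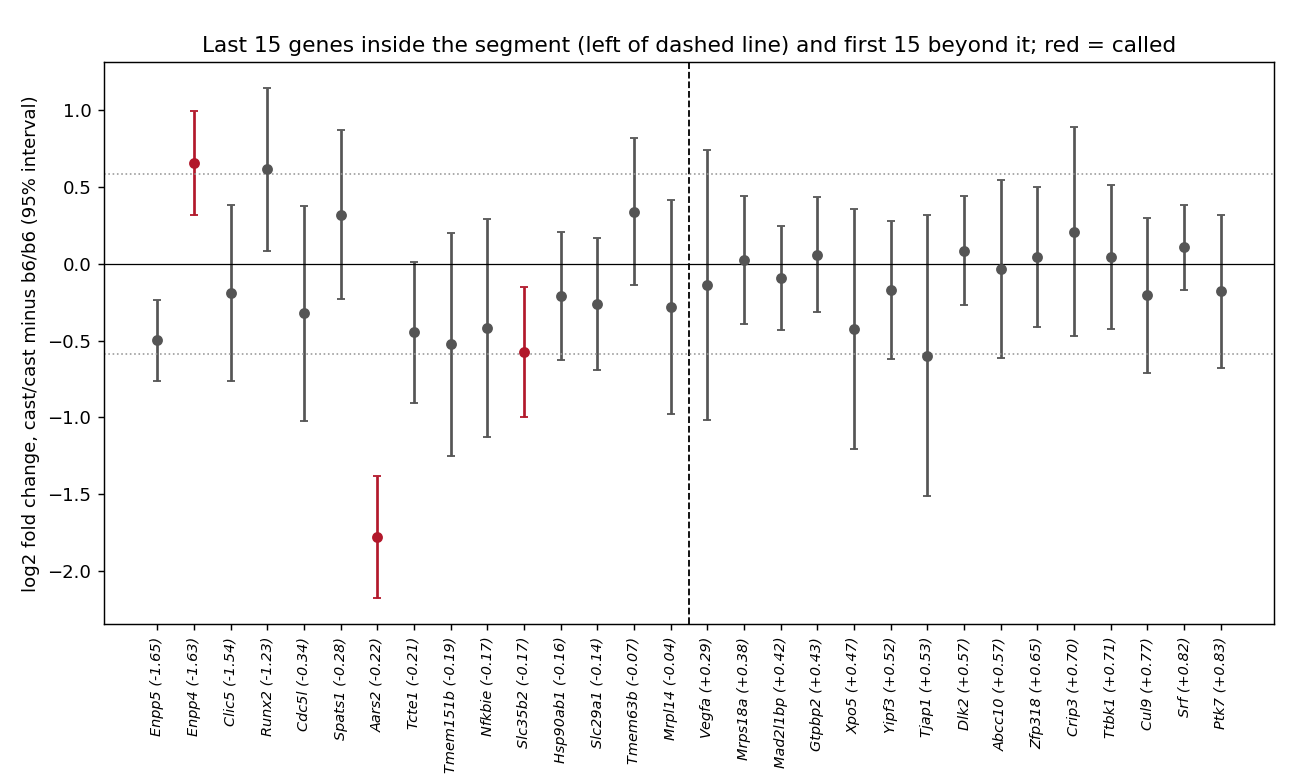
Log2 fold change (*cast/cast* minus *b6/b6*, 12 mice each) with its 95% interval for the last 15 genes inside the segment and the first 15 members, in chromosome order, with dotted lines at 1.5-fold. *Aars2* at -1.78 stands alone near the dashed end line, and right of it each interval includes 0.

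Farther out no distance held a call in the first limma fit. Within 0.5 Mb of the end there were 5 members, from 0.5 to 1 Mb 18, from 1 to 2 Mb 15, from 2 to 5 Mb 10, from 5 to 10 Mb 7, from 10 to 20 Mb 55, and beyond 20 Mb 109. The median absolute log2 fold change in these bins was 0.09, 0.15, 0.19, 0.21, 0.16, 0.16 and 0.18 in turn, and the number with an unadjusted P under 0.05 was 0, 0, 2, 0, 1, 2 and 7. The nearest 5 members thus had the smallest median, and no distance beyond the end had a larger median than 0.21. At the same distances inside the segment, 2 of 11 genes were called within 0.5 Mb, 1 of 5 from 1 to 2 Mb, 4 of 9 from 2 to 5 Mb, 5 of 28 from 5 to 10 Mb, 52 of 204 from 10 to 20 Mb and 38 of 154 beyond 20 Mb, and no gene was tested from 0.5 to 1 Mb.

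The lowest P in each bin came from genes of different kinds. From 1 to 2 Mb it was *Ubr2*, a ubiquitin ligase of the N-degron pathway, with normalized counts of 528 to 1257 (median 785) in *b6/b6* mice against 458 to 991 (median 587) with *cast/cast* and a log2 fold change of -0.32 (95% interval -0.64 to -0.01, limma unadjusted P = 0.0461, adjusted P = 0.608). From 2 to 5 Mb it was *Nfya*, a subunit of the CCAAT-binding factor NF-Y, at a low level of 4.52 to 38.1 (median 13.8) in *b6/b6* mice against 2.54 to 21.8 (median 10.3) with *cast/cast*, with a log2 fold change of -0.64 (interval -1.30 to 0.01). From 5 to 10 Mb it was *Satb1*, a chromatin organizer, with normalized counts of 289.6 to 477 (median 350.4) in *b6/b6* mice against 161 to 423 (median 284) with *cast/cast* and a log2 fold change of -0.37 (interval -0.67 to -0.06, unadjusted P = 0.0196, adjusted P = 0.555, limma). In *Satb1* 6 *cast/cast* mice were below every *b6/b6* mouse, and in *Ubr2* 3 were. Neither gene reached the threshold of 0.01 or a ratio of 1.5.

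A pair of members had an unadjusted P of at most 0.01 and missed the 1.5-fold ratio. *Plin3* (56278961 to 56290511), which coats lipid droplets, lies 10.5 Mb past the end. Normalized counts of *Plin3* ran from 382 to 879.7 with a median of 469 in *b6/b6* mice, and from 531 to 1149 with a median of 654 in *cast/cast* mice. The groups overlapped, with 8 *b6/b6* mice below the lowest *cast/cast* mouse and 1 *cast/cast* mouse above the highest *b6/b6* mouse. The means were 508 ± 136 and 698 ± 164 (SD, n = 12), a ratio of 1.38 (log2 fold change 0.47, 95% interval 0.18 to 0.75, unadjusted P = 0.00221, limma adjusted P = 0.243). The highest mouse was *cast/cast* 6, which stands apart, and without it the ratio was 1.29.

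*Crim1* (78200247 to 78376592), a membrane protein that binds bone morphogenetic proteins, lies 32.5 Mb past the end. Normalized counts of *Crim1* ran from 261 to 577 with a median of 298 in *b6/b6* mice, and from 105 to 323 with a median of 235 in *cast/cast* mice. Here 7 *cast/cast* mice were below the lowest *b6/b6* mouse, and 5 *b6/b6* mice above the highest *cast/cast* mouse. The mean was 1.46-fold lower in *cast/cast* (-0.55 on the log2 scale, interval -0.89 to -0.21, unadjusted P = 0.00263, limma adjusted P = 0.270). *Crim1* was called with all libraries scaled to 1 total (log2 fold change -0.64, unadjusted P = 9.01e-04), and in none of the other 10 fits.

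The other members with an unadjusted P under 0.05 were singled out after their values were seen, apart from *Fbxo11*. They were *Mrps10* at 0.29, *Plin4* at 1.01, *1110020A21Rik* at 0.47 and *Mettl4* at 0.43 with higher log2 values in *cast/cast*, and *Strn* at -1.27, *Map4k3* at -0.85, *Zfp36l2* at -0.36 and *Fbxo11* at -0.36 with lower ones. *Fbxo11*, an F-box protein of ubiquitin ligases, had normalized counts of 429 to 1192 (median 564) in *b6/b6* mice against 316 to 617 (median 499.7) with *cast/cast*, and 5 *b6/b6* mice were above every *cast/cast* mouse. *Mettl4*, an adenine methyltransferase gene near the far end of the flank (49.0 Mb past the marker), had normalized counts of 28.3 to 82.0 (median 67.7) in *b6/b6* mice against 45.1 to 142 (median 78.9) with *cast/cast*. *1110020A21Rik*, 39.2 Mb past the end, had normalized counts of 34.6 to 104 (median 67.5) in *b6/b6* mice against 39.2 to 170.1 (median 92.5) with *cast/cast* and was called only without the 4 libraries that stand apart (log2 fold change 0.66, unadjusted P = 0.00242).

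The 4 members that edgeR called each had 1 or 2 mice far above the rest, and all 4 were named after their values were seen. *Plin4* (56100590 to 56109802), a lipid droplet protein of the same family as *Plin3*, had normalized counts from 4.52 to 56.6 with a median of 21.2 in *b6/b6* mice, and from 12.8 to 629.9 with a median of 35.6 in *cast/cast* mice. The mouse *cast/cast* 4 had 629.9 normalized counts, where the next highest mouse had 57.0. The ratio of means was 3.64 with it and 1.44 without it. edgeR gave a log2 fold change of 1.84 (unadjusted P = 0.00293) and limma 1.01 (0.0321).

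*Adcyap1* (93199421 to 93205489), the gene of the neuropeptide PACAP, lies 47.5 Mb past the end. Normalized counts of *Adcyap1* ran from 126 to 1971 with a median of 189.6 in *b6/b6* mice, and from 113 to 257 with a median of 168 in *cast/cast* mice. In *b6/b6* 12 it reached 1971 and in *b6/b6* 6 it reached 1328, while the other 22 mice were at 260.4 or below. The mean was 2.41-fold lower in *cast/cast* mice, and 1.62-fold lower without *b6/b6* 12. Without the 4 libraries that stand apart the log2 fold change by limma was 0.04 (unadjusted P = 0.788), against -0.59 with them.

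*Map4k3* (80580511 to 80728093), a kinase of the amino acid response upstream of mTORC1, had normalized counts from 9.04 to 139 with a median of 17.6 in *b6/b6* mice, and from 2.86 to 25.8 with a median of 13.7 in *cast/cast* mice. *Rpl36* (56613394 to 56614246), a protein of the large ribosomal subunit, had normalized counts from 1.81 to 449 with a median of 10.3 in *b6/b6* mice, and from 2.73 to 27.5 with a median of 10.6 in *cast/cast* mice. In both genes *b6/b6* 12 and *b6/b6* 6 were the highest mice, at 139 and 96.2 for *Map4k3* and at 449 and 399.9 for *Rpl36*, where every other mouse had at most 25.8 and 27.5. *Map4k3* was also called with study number as a covariate (log2 fold change -1.09, unadjusted P = 0.00671). Its log2 fold change by limma was -0.85, and -0.24 without the 4 libraries that stand apart (unadjusted P = 0.415). For *Rpl36* the medians of the genotypes were 10.3 and 10.6, the expected tag also occurs in transcripts of 5 other genes, 4 of them named as its pseudogenes, and the sign of the log2 fold change turned from -0.42 to 0.63 without the 4 libraries.

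**Figure D4:**
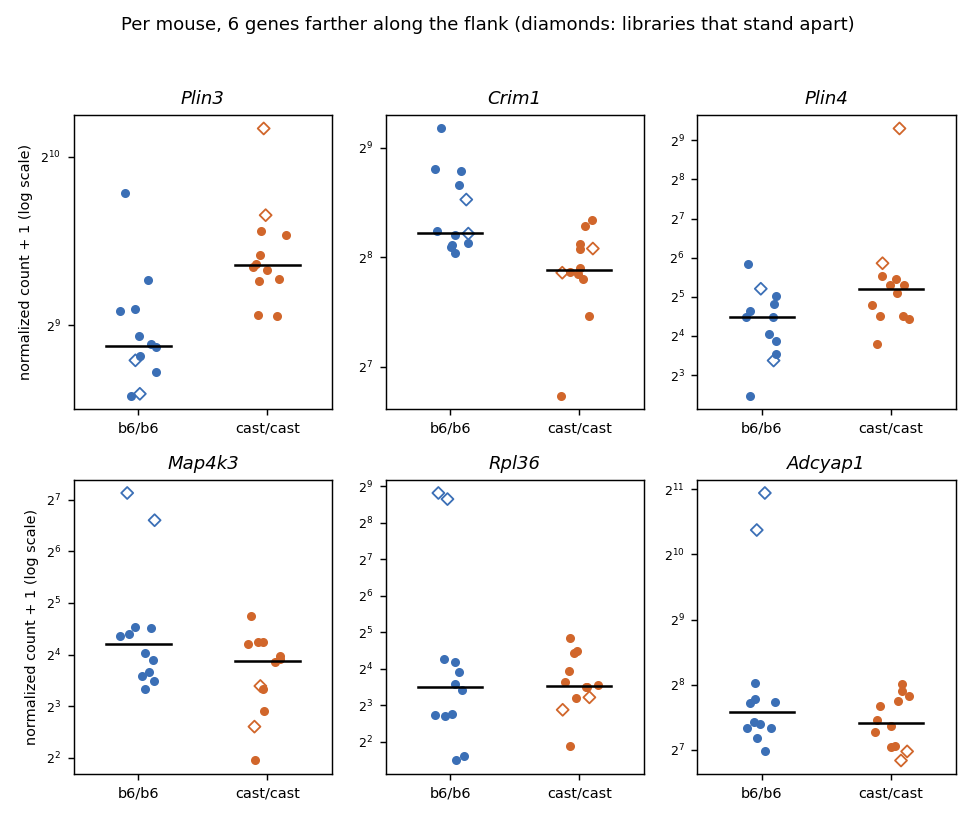
Normalized count + 1 (log scale) in each of the 24 mice for 6 members farther along the flank, with bars at group medians and open diamonds for the 4 libraries that stand apart. *Plin3* and *Crim1* show shifted but overlapping groups, while the high points of *Plin4* (1 diamond) and of *Map4k3*, *Rpl36* and *Adcyap1* (2 diamonds each) belong to libraries that stand apart.

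The highest and the lowest values of members were spread unevenly over the mice. *b6/b6* 12 had the highest value of all mice in 46 of the 219 members and *b6/b6* 6 in 15, against 0 to 22 in the other *b6/b6* mice. The 22 were in *b6/b6* 4, which is not among the libraries that stand apart. Among *cast/cast* mice the most were 25, in *cast/cast* 6, and 24 in *cast/cast* 1, which does not stand apart. *cast/cast* 6 also had the lowest value of all mice in 34 members, more than any other mouse. *Strn*, a striatin scaffold of low level with normalized counts of 0.00 to 40.2 (median 6.67) in *b6/b6* mice against 0.00 to 19.0 (median 1.45) with *cast/cast*, had *b6/b6* 12 and 6 at the top (40.2 and 20.6). Its log2 fold change was -1.27, -0.98 without the 4 libraries that stand apart (unadjusted P = 0.0353) and -0.87 without the 2 that are *b6/b6* (0.0858).

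Sorted by function into 8 lists, with some genes in several lists and 104 members in none, no list held a call in the first limma fit. The growth factor and cytoplasmic signalling list held 1 with libraries rescaled to the same total and 1 with study number as a covariate. By edgeR that list, the RNA processing list and the lipid list held 1 each. Medians of the lists moved between the 11 fits, and their range is given in brackets. Except for the neuronal and the DNA repair lists, the low end came from the fit with libraries rescaled to the same total. In that fit the median of all genes was itself -0.11. The neuronal and synaptic list had 19 members with a median log2 fold change of -0.03 (-0.17 to -0.03), against -0.02 over all genes, and 1 member (*Strn*) with an unadjusted P under 0.05. Its most abundant member, besides *Calm2*, was the brain tubulin *Tubb4a*, with normalized counts of 3246 to 4982 (median 4083) in *b6/b6* mice against 3027 to 5482 (median 3991) with *cast/cast* and a log2 fold change of -0.03 (95% interval -0.25 to 0.20). The 23 members of the transcription and chromatin list had a median of -0.003 (-0.09 to 0.02) and 2 with lower values at P under 0.05 (*Satb1* and *Zfp36l2*). *Epas1*, the hypoxia-inducible factor HIF-2 alpha, had normalized counts of 832 to 4372 (median 2662) in *b6/b6* mice against 1586 to 4332 (median 2971) with *cast/cast*, with a log2 fold change of 0.35 (-0.13 to 0.83). *Foxp4*, a forkhead factor, had normalized counts of 425 to 2274 (median 1059.8) in *b6/b6* mice against 581 to 2863 (median 941) with *cast/cast*, with a log2 fold change of 0.20 (-0.39 to 0.80).

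Among genes of lipids, membranes and transport the 18 members had a median of -0.05 (-0.14 to 0.04), and *Plin3* and *Plin4* were the 2 with a P under 0.05. *Slc25a23*, a mitochondrial carrier of ATP-Mg and phosphate, varied little between mice, with normalized counts of 1475 to 1961 (median 1741) in *b6/b6* mice against 1632 to 2704 (median 1804) with *cast/cast* and a log2 fold change of 0.13 (-0.09 to 0.34). *Ehd3*, an endocytic recycling protein, had normalized counts of 621 to 2172 (median 1846) in *b6/b6* mice against 1628 to 2784 (median 1891) with *cast/cast* and a log2 fold change of 0.35 (-0.01 to 0.71), and 4 *b6/b6* mice were below the lowest *cast/cast* mouse. The 22 members of growth factor and cytoplasmic signalling had a median of -0.08 (-0.17 to -0.02), with *Crim1* and *Map4k3* at a P under 0.05. *Sos1*, the exchange factor that activates Ras, had normalized counts of 1048 to 1495 (median 1323) in *b6/b6* mice against 877 to 1508 (median 1299) with *cast/cast* and a log2 fold change of -0.12 (-0.35 to 0.11).

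The 9 mitochondrial members had a median of -0.20 (-0.28 to 0.07), which was 0.07 without the 4 libraries that stand apart and -0.02 without the 2 that are *b6/b6*. *Mrps10* had a P under 0.05 and a value above 0. *Ndufv2*, a subunit of respiratory complex I, ranged widely within *cast/cast*, with normalized counts of 286 to 1071 (median 624) in *b6/b6* mice against 179 to 2049 (median 952) with *cast/cast* and a log2 fold change of 0.26 (-0.48 to 0.999). *Cox7a2l*, which joins respiratory supercomplexes, had normalized counts of 465 to 1056 (median 675) in *b6/b6* mice against 260.1 to 912 (median 658) with *cast/cast*, with a log2 fold change of -0.21 (-0.58 to 0.16). For RNA processing and translation the 14 members had a median of 0.04 (-0.05 to 0.10) and no P under 0.05. The splicing factor *Srsf7* had normalized counts of 1212 to 2149.7 (median 1519.9) in *b6/b6* mice against 842 to 2358 (median 1784) with *cast/cast*, with a log2 fold change of 0.06 (-0.25 to 0.38), and *Hnrpll*, another splicing regulator, had median counts of 907 and 1117, with a log2 fold change of 0.04 (-0.38 to 0.46).

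In the remaining lists the values of all members were below 0. All 9 members of ubiquitin ligases and proteases had a log2 fold change below 0 (median -0.21, lowest -0.36 in *Fbxo11*), with *Ubr2* and *Fbxo11* at a P under 0.05, and between 7 and 9 were below 0 over the 11 fits. Their median was -0.30 to -0.06 over the fits, with -0.10 when the 2 *b6/b6* libraries that stand apart were left out and -0.06 with 2 principal components as covariates. All 7 members of DNA repair and cell cycle were below 0 (median -0.13, -0.27 to -0.03 over the fits), between 5 and 7 over the fits (6 of 6 with a minimum mean of 20), with 3 genes shared by both lists. *Birc6*, a large inhibitor of apoptosis, was one of these, with normalized counts of 486 to 1202 (median 679) in *b6/b6* mice against 449 to 1199 (median 595) with *cast/cast* and a log2 fold change of -0.05 (-0.46 to 0.36). A count of signs over genes that vary together in the same mice is a description, and 0 members of either list were called in each fit.

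Like every member on the log2 scale, the 2 most abundant varied more between mice of a genotype than between genotypes. *Calm2* (87433400 to 87446935), which encodes calmodulin, a calcium sensor of neurons, made up 35.5% of the summed mean normalized count of the flank. Normalized counts of *Calm2* ran from 14115 to 82169.6 with a median of 66828 in *b6/b6* mice, and from 13224 to 88051 with a median of 65488 in *cast/cast* mice. In 4 mice it was at 13224 and 20304 (*cast/cast* 5 and 9) and at 23170 and 14115 (*b6/b6* 2 and 9), and in the other 20 between 38079 and 88051. The log2 fold change was 0.08 (95% interval -0.55 to 0.71). Of the 9996 genes with a mean of at least 50, 6 had lower values in each of these 4 mice than in any other. *Calm2* is among the 6 by selection, since the 4 mice were picked by its values.

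*Myl12b*, a regulatory light chain of nonmuscle myosin, had normalized counts from 1365 to 13406 with a median of 9881 in *b6/b6* mice, and from 1429 to 17907 with a median of 10777 in *cast/cast* mice. It was at 1429 in *cast/cast* 5 and 1365 in *b6/b6* 9, and at 7758 or more in the other 22 mice, so that these 2 mice were the lowest for both genes. The low mice came from both genotypes, 2 and 2 for *Calm2* and 1 and 1 for *Myl12b*. None of these 4 mice was among the libraries that stand apart. The flank as a whole took 1.05 to 1.85% of the tag hits of a mouse, and the 4 mice with low *Calm2* had the 4 lowest shares, at most 1.29% against 1.52% or more elsewhere. *Calm2* is itself counted in this share. Without *Calm2* and *Myl12b* the share was 0.893 to 1.16%.

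**Figure D5:**
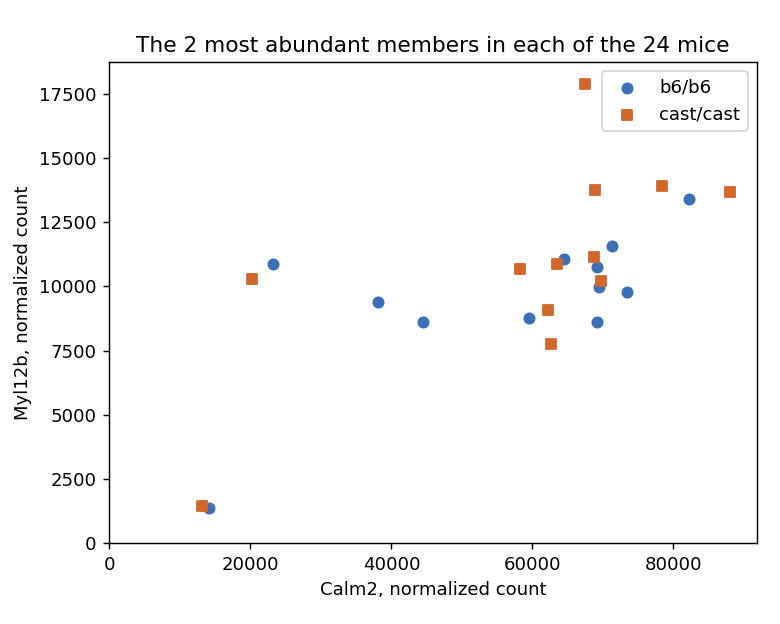
Normalized count of *Calm2* (x axis) and *Myl12b* (y axis) in each of the 24 mice, with circles for *b6/b6* and squares for *cast/cast*. In the lower left 1 mouse of each genotype is low for both genes, and another mouse of each is low for *Calm2* alone.

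The next 6 members by level had a smaller SD of log2 values over the 24 mice, from 0.22 in *Tubb4a* to 0.63 in *Prkce*, where *Calm2* had 0.79 and *Myl12b* 0.88. *Rab12*, a small GTPase of endosomes, had normalized counts of 5418 to 10685 (median 9023) in *b6/b6* mice against 7191 to 10941 (median 9611) with *cast/cast* and a log2 fold change of 0.12 (95% interval -0.11 to 0.36). *Pja2*, a ubiquitin ligase that targets regulatory subunits of protein kinase A, had normalized counts of 2284 to 6292 (median 3212) in *b6/b6* mice against 1625 to 4006 (median 2998) with *cast/cast*, with a log2 fold change of -0.24 (-0.58 to 0.11). *Clip4*, a relative of microtubule plus-end proteins, had normalized counts of 2309.8 to 4677 (median 2912) in *b6/b6* mice against 1961 to 6035 (median 2444) with *cast/cast*, with a log2 fold change of -0.13 (-0.51 to 0.25). *Prkce*, protein kinase C epsilon, had normalized counts of 1639 to 3830.4 (median 2669.7) in *b6/b6* mice against 1049 to 7019 (median 1977) with *cast/cast*, with a log2 fold change of -0.16 (-0.67 to 0.34). The genotypes overlapped in each of these genes.

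The precision of the data limits what the absence of calls means. The 95% interval of 184 of the 219 members (84.0%) lay within a 2-fold difference in either direction, and that of 83 (37.9%) within 1.5-fold, beside 80.7% and 37.4% on the other chromosomes. For the remaining 35 members a 2-fold difference between the genotypes was not excluded. The median interval reached 0.46 to either side of its log2 fold change. Mean normalized counts ran from 6.71 to 58330 with a median of 180, and 30 members averaged less than 20. In those 30 the median interval reached 0.74 to either side, against 0.44 in the others. RefSeq lists 309 protein-coding genes starting on the flank, of which 222 were in the table, and the others were not analysed here.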

How the data were processed

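Hypothalamus SAGE-Seq libraries of 24 F2 mice, 12 *cast/cast* and 12 *b6/b6* as the labels state, were analysed. The deposited signal per mouse and gene is a normalized count: the authors mapped tags to RefSeq mRNA and GRCm38 (mm10) with their modified SOLiD SAGE software and scaled tag hits by DESeq size factors. The table's 19529 rows held 13998 genes, and repeated rows of a gene were used 1 time. Base means, fold changes, log2 fold changes, P and adjusted P that the authors deposited were not used. Divided by the step of its library, 100% of the values came out whole (within 0.01), which recovered the tag hits. Over the 276 pairs of libraries, chi-square per degree of freedom was at least 15.4, so none was a repeat deposit of another. Tags carry no molecular identifiers.

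Genes were placed by the lowest coordinate in the deposited table, for either strand. limma 3.58.1 (lmFit, trended eBayes), with log2(normalized count + 1) as response and no covariate, tested all genes of the table, *cast/cast* minus *b6/b6*, so fold changes of low genes are understated. Calls needed an unadjusted P no higher than 0.01 and a 1.5-fold ratio. Alternatives were a pseudocount of 0.5 or of 5, only genes averaging 20 or more, a common total for all libraries, edgeR 4.0.16 (quasi-likelihood, TMM) and DESeq2 1.42.0 on the tag hits so recovered, a covariate of study number, adjusted P, no minimum ratio, and a flank from 46 Mb. Another 3, chosen after seeing the data, left out the 4 libraries that stand apart, left out the 2 of them that are *b6/b6*, or added 2 principal components of the genes of the other chromosomes. The scripts were tested on simulated data.

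The genes named were the last 8 tested in the segment, the first 15 members, called members, the lowest P in each distance bin, the 8 highest means and the 2 highest of each list, and *Aars2* as the most distal adjusted call. *Adcyap1*, *Map4k3*, *Rpl36*, *Plin4*, *1110020A21Rik* and the other members with P under 0.05 were picked once their values were known. The members and lists were chosen with earlier results of these data known. Tags came from GENCODE M21 transcripts, and markers of the congenic strain were not analysed here. Python 3.11.15 and R 4.3.3 were used.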

Additional observations from a re-analysis of the deposited data

How the results depend on the processing

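Among the 219 members the count of calls was 0 by limma, with pseudocounts of 0.5 and 5, a minimum mean of 20 (189 members), DESeq2 and adjusted P. A flank from 46 Mb also gave 0, but it held the same members, since the first starts at 46.02 Mb. Its count could therefore not differ and is no separate check. Without a minimum ratio the count was 2, 1 higher and 1 lower, both beyond 1 Mb. Libraries rescaled to the same total gave 1 lower (*Crim1*, -0.64), edgeR 4 (1 higher and 3 lower, all beyond 1 Mb), and study number as a covariate 1 lower (*Map4k3*, -1.09). Of the alternatives chosen after seeing the data, leaving out the 4 libraries that stand apart gave 1 higher (*1110020A21Rik*, 0.66), and leaving out 2 *b6/b6* libraries or adding 2 principal components gave 0. The cause was not tested. Within 1 Mb of the end the count was 0 in each setting run, and the most distal adjusted call was *Aars2* (45.5 Mb) in each. The share of genes called on the other chromosomes was 0.688% by limma and 2.02% by edgeR, 2.02% by DESeq2, 1.42% with study number, 0.214% without the 2 *b6/b6* libraries and 0.388% with 2 principal components. It was 0.870% with libraries rescaled to the same total and 0.546% without the 4 libraries, where 0.457% of members were called in each.

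Of 443 recomputed log2 fold changes of 56 genes, 409 kept their direction and their side of the thresholds, 8 passed them anew, 3 (*Slc35b2* at -0.47, -0.35 and -0.27 in the alternatives chosen after seeing the data) no longer passed, and 23 changed sign without passing. With libraries rescaled to the same total, where the median of all genes was -0.11, the signs of *Calm2* (-0.0110), *Dlk2* (-0.00603), *Gtpbp2* (-0.0347), *Hnrpll* (-0.0545), *Mrps18a* (-0.0691), *Srsf7* (-0.0272), *Ttbk1* (-0.0483) and *Zfp318* (-0.0496) changed. With study number those of *Birc6* (0.0427), *Mad2l1bp* (0.0109) and *Zfp318* (-0.0503) did. *Abcc10* was at 0.18 by edgeR and 0.18 by DESeq2, and *Prkce* at 0.00285 and 0.0128. *Rpl36* was at 0.43 by DESeq2, 0.63 without the 4 libraries, 0.52 without the 2 *b6/b6* libraries and 0.73 with 2 principal components. *Adcyap1* was at 0.0422 without the 4 libraries and 0.0248 with 2 principal components, and *Xpo5* at 0.22 and 0.0126. No paired analysis was possible because the labels tie no mouse to one of the other genotype, and replicate numbers only name the mice. Genes below 6.03 were not analysed here.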
